A study of Homo sapiens with 12 samples.

Results

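The UPF and SMG genes encode the core factors of nonsense-mediated decay, and 9 of them were followed here by symbol: UPF1, UPF2, UPF3A, UPF3B, SMG1, SMG5, SMG6, SMG8 and SMG9. Each matched 1 protein-coding Ensembl gene among the 63541 gene IDs of the deposited count table, and all 9 were among the 21999 genes that passed the filter on low counts. The cells were HEK293T, a human embryonic kidney line, and every group was transfected with Lipofectamine RNAiMAX and siRNA at 12.5 nM and sampled at 48 h. The 4 groups, of 3 libraries each, received a scramble siRNA or si-snaR-A#1, si-snaR-A#2 or si-snaR-A#3 (siRNA #1, #2 and #3), which target snaR-A, a short noncoding RNA made by RNA polymerase III. Poly(A)+ RNA was counted per gene, and the comparisons ask which mRNAs differ in abundance after siRNA against snaR-A.

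Nonsense-mediated decay removes mRNAs on which a ribosome terminates too early, and it also tunes many normal mRNAs. UPF1, an RNA helicase, gathers on such mRNAs. UPF2 and UPF3B link it to exon junction complexes left downstream by splicing, the kinase SMG1 with its partners SMG8 and SMG9 phosphorylates UPF1, and SMG5 and SMG6 bind phosphorylated UPF1 to start degradation. Several of these factors are made from mRNAs that the pathway itself degrades, so that their mRNA levels are often read as a gauge of its activity.

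Library totals ran from 120.4 to 180.1 M estimated counts. Values below are CPM after TMM scaling, given as mean ± SD with n = 3 libraries, and differences come from edgeR's quasi-likelihood test with Benjamini-Hochberg adjustment over all 21999 genes. Genes with an adjusted p under 0.05 are spoken of as called. The study handled its replicates on the same day, so the p-values measure the spread between these libraries, part of which may be technical. The extent of snaR-A knockdown could not be read from this table. The marker values in the rest of this paragraph are an exception, as CPM of the library totals without TMM scaling. As for the cell type, VIM (504 to 745 CPM), CDH2 (93.4 to 155 CPM) and KRT18 (27.0 to 35.7 CPM) were detected in every library, KRT19 and PAX8 stayed under 0.11 CPM, and of 7 markers of other cell types COL1A1 (12.7 to 27.6 CPM) and DCN (0.0166 to 0.326 CPM) passed the filter on low counts while the leukocyte gene PTPRC reached at most 0.113 CPM. The summed level of these 7 was nearly all COL1A1. It was 25.0 to 28.0 CPM in scramble, 23.1 to 24.6 with siRNA #1, 18.8 to 21.2 with siRNA #2 and 13.1 to 14.1 with siRNA #3. PTPRC, CD3E, COL1A2, PECAM1 and ALB were at or near 0 in every library. The 10 markers looked up for HEK293T summed to 720 to 796, 656 to 732, 906 to 938 and 805 to 867 CPM in the same order, mostly VIM. Of these, KRT8 (6.73 to 9.16 CPM), CDH1 (6.32 to 11.1), PAX2 (4.43 to 7.83), EPCAM (1.76 to 2.31) and LHX1 (0.116 to 0.929) were lower. CDH1 was called lower with each siRNA. The part of either sum in the values of the members was not tested. In bulk RNA, less RNA per cell and fewer cells with that RNA cannot be told apart.

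Counts were divided by the length of the canonical transcript to compare levels between the genes. The deposited values appear to have been rescaled before deposit, so these levels are approximate. In scramble-transfected cells UPF3B was the most abundant of the 9, at 58.8 ± 0.831 CPM per kb, above 93.5% of the 15075 protein-coding genes tested. SMG5 followed at 34.1 ± 2.75 CPM per kb and UPF1 at 24.9 ± 0.319 CPM per kb. UPF2 (14.4 ± 0.352 CPM per kb), SMG1 (12.1 ± 1.40), SMG8 (11.9 ± 0.426) and UPF3A (8.87 ± 0.504) formed the middle of the order. SMG6 (5.10 ± 0.180 CPM per kb) and SMG9 (4.82 ± 0.277) were lowest, near the median of protein-coding genes (46.3 and 45.1 percentile). Neighbours in this order had separate ranges over the 3 scramble libraries except SMG1 with SMG8 and SMG6 with SMG9, whose ranges overlapped. The paralogues UPF3A and UPF3B sat far apart in this order.

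**Figure D1:**
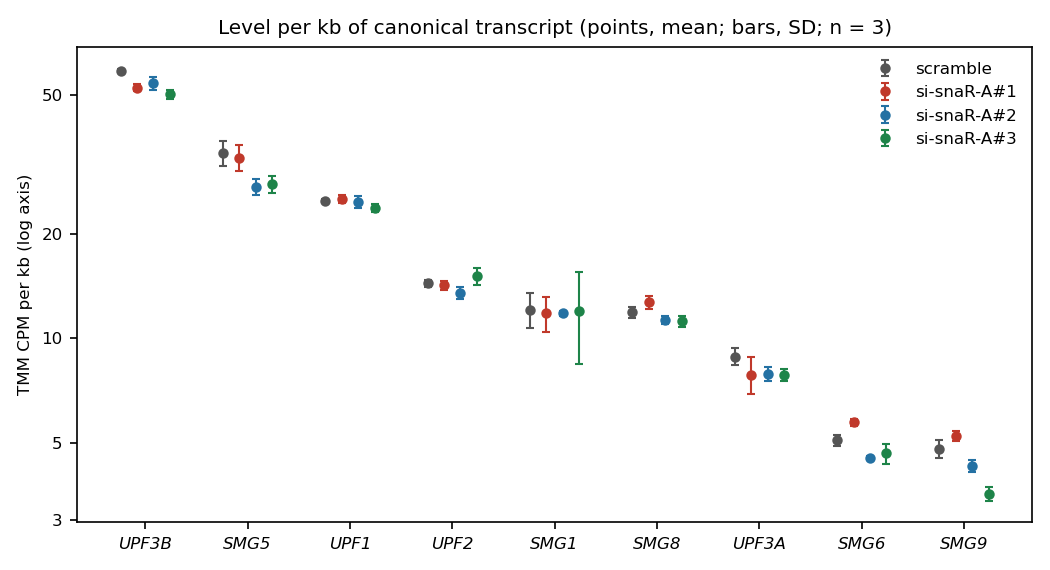
Level of each UPF and SMG gene in TMM-scaled CPM per kb of canonical transcript (vertical log axis) in the 4 groups, with points for the mean and bars for the SD of 3 libraries. UPF3B stands highest at 58.8 in scramble and SMG9 lowest at 4.82, and the order of the genes is wider than the differences between groups.

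Against scramble, the mean of the 3 siRNAs was lower for UPF3B, SMG5 and SMG9 and the other 6 members were not called. UPF3B fell by 0.17 on the log2 scale (SE 0.03, adjusted p = 0.00107), or by 11.1%. SMG5 fell by 0.22 (SE 0.06, adjusted p = 0.0101), or by 14.4%. SMG9, a partner of the kinase SMG1, fell by 0.16 (SE 0.04, adjusted p = 0.0146), or by 10.2%. With siRNA #1 neither SMG5 (-0.05) nor SMG9 (0.13) was called, and their lower means come from siRNA #2 and siRNA #3. The 3 calls of 9 compare with 32.2% of all genes tested called in this comparison, 15.6% higher and 16.6% lower. The median log2 fold change was -0.04 over the 9 members and -0.04 over all genes tested. Leaving out scramble replicate 1 ended the calls of SMG5 (log2 fold change -0.16, adjusted p = 0.0832) and SMG9 (-0.11, adjusted p = 0.119), which left 1 member called.

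Single siRNAs differed in which members they moved. With siRNA #1, 2 members were called against 45.2% of all genes, namely SMG6 higher (21.9% of genes were called higher) and UPF3B lower (23.3% were called lower). With siRNA #2, 4 members were called against 25.8% of all genes, and UPF3B, SMG5, SMG6 and SMG9 were each lower, in a comparison where 13.7% of genes were called higher and 12.1% lower. With siRNA #3, 3 members were called against 29.4% of all genes, and UPF3B, SMG5 and SMG9 were each lower, where 16.5% of genes were called higher and 13.0% lower. Log2 fold changes were below 0 for 5 of 9 members with siRNA #1, 9 with siRNA #2 and 8 with siRNA #3, and their medians were -0.02, -0.12 and -0.12, beside -0.02, -0.03 and -0.03 over all genes tested. The libraries of an siRNA lay on one side of all scramble libraries for 2, 6 and 6 of the 9 members in order of number. The share of all genes separated in this way was not counted. Such separation, given below for single members, is therefore no further support. These comparisons share their scramble libraries and are not independent. The siRNA sequences that the paper lists also overlap near the 3′ end of snaR-A, and siRNA #3 holds the whole of siRNA #2. The number called with siRNA #1 was 1 without scramble replicate 3 and 4 without siRNA #1 replicate 3. With siRNA #2 it was 1 or 2 when any of 8 libraries was left out, and the calls that were lost are given with each gene.

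**Figure D2:**
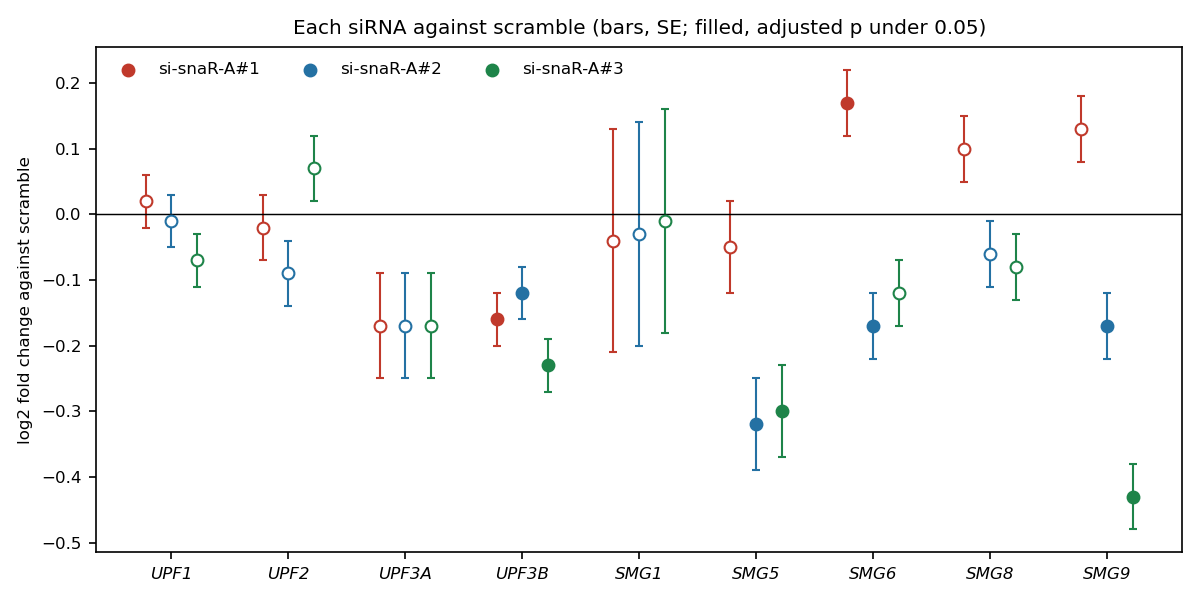
Log2 fold change of each member (vertical axis) against scramble with each of the 3 siRNAs, with bars for the SE and filled points for an adjusted p under 0.05. UPF3B is filled with all 3 siRNAs, SMG6 is filled above 0 with siRNA #1 (0.17) and below 0 with siRNA #2 (-0.17), and the lowest point is SMG9 with siRNA #3 (-0.43).

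The sequence upstream of the start was read for the members called in the mean of the siRNAs, UPF3B, SMG5 and SMG9, and for UPF3A, the paralogue of UPF3B. Bases come from the RefSeq promoter table (GRCh38.p14), 5′ to 3′, up to 250 bases before the annotated start. For UPF3B 215 bases are shown, without 35 bases that GENCODE places inside the transcript. Capitals mark words found on either strand: TCGCGAG, the core of the element bound by BANP, GCATGCG, the core of the NRF1 site, and CCGGAAG, an ETS family site.
UPF3B, GRCh38.p14 chrX:119852999-119853213, minus strand: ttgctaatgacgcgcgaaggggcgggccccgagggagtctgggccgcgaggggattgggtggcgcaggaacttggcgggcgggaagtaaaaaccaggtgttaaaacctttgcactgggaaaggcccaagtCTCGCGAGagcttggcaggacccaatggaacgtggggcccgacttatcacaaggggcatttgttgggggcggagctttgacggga
SMG5, GRCh38.p14 chr1:156282826-156283075, minus strand: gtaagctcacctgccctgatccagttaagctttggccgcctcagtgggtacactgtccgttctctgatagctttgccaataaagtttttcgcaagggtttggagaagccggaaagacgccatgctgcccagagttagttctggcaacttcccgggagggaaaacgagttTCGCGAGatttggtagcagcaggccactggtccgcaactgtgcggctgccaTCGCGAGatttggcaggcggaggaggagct
SMG9, GRCh38.p14 chr19:43754963-43755212, minus strand: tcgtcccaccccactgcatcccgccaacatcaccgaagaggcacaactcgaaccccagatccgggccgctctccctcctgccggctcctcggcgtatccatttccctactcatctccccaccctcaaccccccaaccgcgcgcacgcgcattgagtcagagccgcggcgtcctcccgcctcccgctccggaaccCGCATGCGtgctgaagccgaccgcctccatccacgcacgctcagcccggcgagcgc
UPF3A, GRCh38.p14 chr13:114281351-114281600, plus strand: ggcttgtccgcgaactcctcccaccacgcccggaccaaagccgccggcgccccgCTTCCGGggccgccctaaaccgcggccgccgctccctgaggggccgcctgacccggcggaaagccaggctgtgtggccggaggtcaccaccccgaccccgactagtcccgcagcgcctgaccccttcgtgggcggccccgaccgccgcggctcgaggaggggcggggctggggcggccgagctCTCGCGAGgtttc
The word TCGCGAG or its reverse complement stood in the windows of UPF3B, UPF3A and SMG5 and in 2% of 35116 windows of the same length. In UPF3B and UPF3A it was a single palindromic CTCGCGAG, matched on both strands, and in SMG5 it occurred at 2 separate places. GCATGCG occurred in SMG9 alone among the 8 members with a window and in 3.39% of all windows, and CCGGAAG in UPF3A alone and in 8.52%. The other words searched were the GC box GGGCGG (6 of 8 members, 42.6% of all windows), CCAAT (4 of 8, 32%) and the YY1 word AAGATGGC (0 of 8, 1.36%). The 8 windows had a G+C content of 55.6 to 79.6%, against a median of 58% over all windows. They held 14 to 41 CpG, against a median of 11. TCGCGAG itself holds CpG, so its share over all windows is not a matched background. A word in a window is a description of the letters there and not a measured site.

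UPF3B (ENSG00000125351, chrX:119834022-119852998, minus strand) encodes the adaptor that joins UPF2 to the exon junction complex. It measured 136, 137 and 140 CPM in the scramble libraries, 124, 125 and 120 with siRNA #1, 126, 122 and 132 with siRNA #2 and 117, 115 and 122 with siRNA #3. All 9 siRNA libraries lay below all 3 scramble libraries, a separation that 12.1% of the genes tested showed in one direction or the other and that UPF3B alone showed among the members. The mean fell from 138 ± 1.95 CPM to 123 ± 2.76 with siRNA #1, a log2 fold change of -0.16 (SE 0.04, adjusted p = 0.0036). It fell by 0.12 with siRNA #2 (127 ± 5.09 CPM, SE 0.04, adjusted p = 0.0375) and by 0.23 with siRNA #3 (118 ± 3.43 CPM, SE 0.04, adjusted p = 7.3e-04). UPF3B was the single member called with all 3 siRNAs, and belonged to 1761 genes, of the 21999 tested, called in the same direction each time.

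The siRNA #2 value of UPF3B was the least secure of these. Its call was kept in 9 of 23 alternatives, with an adjusted p of 0.107 under RLE scaling, 0.136 with no low count filter, 0.0656 with the compared groups only, 0.0549 by edgeR's exact test, 0.108 by DESeq2 and 0.05 with the replicate block. It was also lost without scramble replicate 1 (0.065), 2 (0.091) or 3 (0.194), without siRNA #1 replicate 2 (0.0896) or 3 (0.0547), without siRNA #2 replicate 1 (0.109) or 2 (0.169) and without siRNA #3 replicate 2 (0.0537). The log2 fold change of UPF3B stayed between -0.16 and -0.09 over these alternatives. With the other siRNAs the call was kept in 23 of 23.

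UPF3A (ENSG00000169062, chr13:114281601-114305817, plus strand) encodes the paralogue of UPF3B, a weaker activator of decay that competes with it for UPF2. The scramble libraries held 22.4, 20.5 and 20.1 CPM, those with siRNA #1 16.4, 18.7 and 20.9, those with siRNA #2 18.7, 17.9 and 19.6 and those with siRNA #3 19.2, 17.8 and 19.0. The libraries of siRNA #2 and siRNA #3 lay below every scramble library, and those of siRNA #1 overlapped them. The log2 fold change was -0.17 with each siRNA (SE 0.08) and none was called (adjusted p = 0.0895, 0.144 and 0.114 in order of number), nor was the mean (-0.17, SE 0.06, adjusted p = 0.0546). Without siRNA #1 replicate 3, the mean of UPF3A was called (-0.19, adjusted p = 0.00955), as were siRNA #1 (-0.26, adjusted p = 0.00785) and siRNA #3 (-0.17, adjusted p = 0.0466). Its mean was called as well under upper quartile scaling (-0.20, adjusted p = 0.0399), with no low count filter (-0.17, 0.0469) and by limma voom (-0.17, 0.0457).

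UPF1 (ENSG00000005007, chr19:18831959-18868230, plus strand), the helicase, was called in none of the 7 comparisons. It measured 133, 130 and 134 CPM in scramble, 135, 137 and 130 with siRNA #1, 132, 136 and 125 with siRNA #2 and 123, 130 and 125 with siRNA #3. The values of the 4 groups lay close together, and the coefficient of variation within a group was between 1.28 and 4.22%. The siRNA #3 libraries lay below scramble, though both groups reach 130 CPM after rounding. Log2 fold changes of UPF1 were 0.02, -0.01 and -0.07 (SE 0.04 each, adjusted p = 0.731, 0.891 and 0.219). The last was called at -0.12 under upper quartile scaling (adjusted p = 0.0184) and at -0.10 with a filter at a mean of 1 CPM (adjusted p = 0.0431), and the sign with siRNA #2 turned under RLE scaling (0.01).

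UPF2 (ENSG00000151461, chr10:11920022-12043170, minus strand), the bridge between UPF1 and UPF3B, was not called against scramble, except with siRNA #2 under upper quartile scaling (-0.14, adjusted p = 0.0352). The scramble libraries held 75.9, 75.2 and 72.4 CPM, those with siRNA #1 75.6, 72.1 and 72.2, those with siRNA #2 70.8, 66.6 and 71.9 and those with siRNA #3 82.6, 77.5 and 74.2. The siRNA #2 libraries were the lowest and lay under the range of every other group. UPF2 was lower with siRNA #2 than with siRNA #3, by 0.16 on the log2 scale (SE 0.05, adjusted p = 0.0295). This call was kept in 15 of 23 alternatives, and the exceptions were without scramble replicate 3 (adjusted p = 0.0647), without siRNA #1 replicate 2 (0.0693) or 3 (0.0509), without siRNA #2 replicate 1 (0.0637) or 2 (0.131) and without siRNA #3 replicate 1 (0.112) or 2 (0.0707), and with the compared groups only (0.0679).

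**Figure D3:**
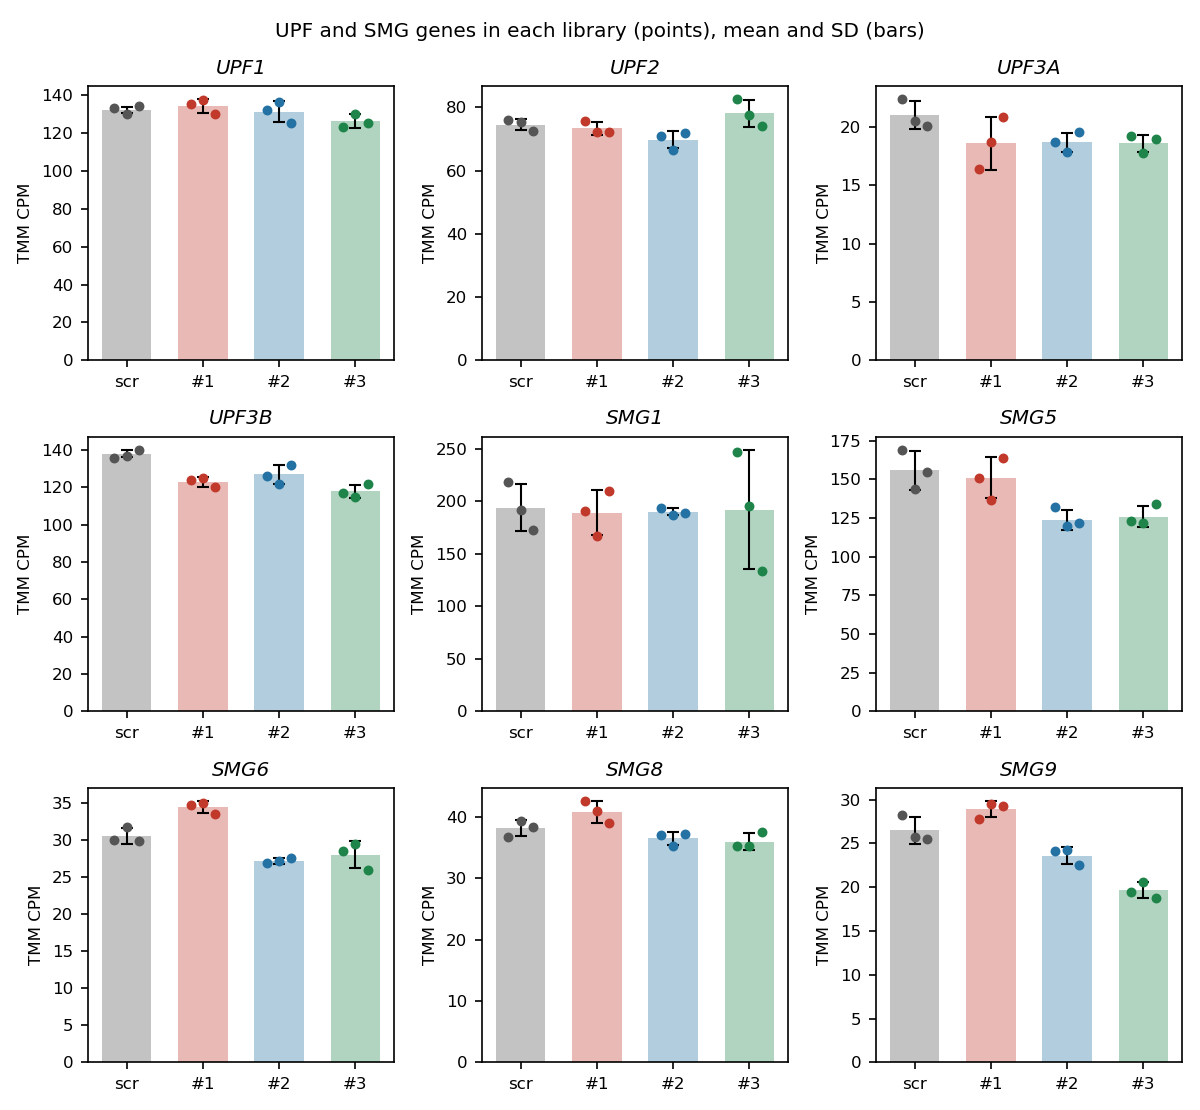
TMM-scaled CPM of each member (vertical axes, from 0) in the 12 libraries, with points for libraries, bars for group means and error bars for the SD (n = 3; scr, scramble; #1 to #3, the siRNAs). UPF3B is lower in all 9 siRNA libraries than in scramble (136 to 140), SMG9 falls to 18.8 to 20.6 with siRNA #3, and SMG1 spreads from 134 to 247 within siRNA #3.

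SMG5 (ENSG00000198952, chr1:156249224-156282825, minus strand) encodes a partner of phosphorylated UPF1 that draws in deadenylation and decapping. It measured 169, 144 and 155 CPM in scramble, 151, 137 and 164 with siRNA #1, 132, 120 and 122 with siRNA #2 and 123, 122 and 134 with siRNA #3. The siRNA #1 libraries overlapped scramble, and all 6 libraries of the other siRNAs lay below both. SMG5 fell from 156 ± 12.5 to 124 ± 6.41 CPM with siRNA #2, a log2 fold change of -0.32 (SE 0.07, adjusted p = 0.00536), and to 126 ± 6.93 CPM with siRNA #3, a log2 fold change of -0.30 (SE 0.07, adjusted p = 0.00691). With siRNA #1 it was 151 ± 13.2 CPM, a log2 fold change of -0.05 (SE 0.07, adjusted p = 0.641). Both calls of SMG5 were kept in 23 of 23 alternatives.

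SMG6 (ENSG00000070366, chr17:2059839-2303785, minus strand) encodes the endonuclease that cuts the mRNA near the premature stop codon. The scramble libraries held 30.0, 31.7 and 29.8 CPM, those with siRNA #1 34.7, 35.0 and 33.5, those with siRNA #2 26.8, 27.1 and 27.5 and those with siRNA #3 28.5, 29.4 and 25.9. The siRNA #1 libraries lay above scramble and the other 6 siRNA libraries below it, with no overlap. SMG6 rose by 0.17 on the log2 scale with siRNA #1 (SE 0.05, adjusted p = 0.0111) and fell by 0.17 with siRNA #2 (SE 0.05, adjusted p = 0.0239). The value with siRNA #3 was -0.12 (SE 0.05, adjusted p = 0.0765), and the mean of the siRNAs was -0.04 (SE 0.04, adjusted p = 0.501). With siRNA #3, SMG6 was called lower under upper quartile scaling (-0.18, adjusted p = 0.0121), with a mean of at least 1 CPM (-0.15, 0.0201) and without siRNA #3 replicate 2 (-0.16, 0.0476).

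The rise of SMG6 with siRNA #1 missed the threshold once scramble replicate 3 was left out (adjusted p = 0.0519). Its fall with siRNA #2 was kept in 16 of 23 alternatives and lost under RLE scaling (0.0551), without scramble replicate 2 (0.101) or 3 (0.073), without siRNA #1 replicate 2 (0.0657) and without siRNA #2 replicate 1 (0.0798), 2 (0.0699) or 3 (0.0511). HIC1 on the opposite strand shares 2419 bases of exon with SMG6, 22.9% of the exon bases of SMG6, and the library kit keeps the strand of the RNA, but whether strand was used in the counting is not stated. HIC1 measured 0.767 to 1.48 CPM in scramble, 2.66 to 3.98 with siRNA #1, 0.718 to 1.13 with siRNA #2 and 0.401 to 1.00 with siRNA #3, so that it was highest in the same group as SMG6. Its part in the SMG6 values was not tested.

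SMG1 (ENSG00000157106, chr16:18804860-18926408, minus strand), the kinase of UPF1, was called in none of the 7 comparisons and had the widest spread of any member in any group, with siRNA #3. It measured 218, 192 and 173 CPM in scramble, 191, 167 and 210 with siRNA #1, 194, 187 and 189 with siRNA #2 and 247, 195 and 134 with siRNA #3. The siRNA #3 libraries held both the highest and the lowest value of the 12, a coefficient of variation of 29.5%, while their mean of 192 ± 56.7 CPM was next to the 194 ± 22.4 CPM of scramble. Log2 fold changes of SMG1 were -0.04, -0.03 and -0.01 with an SE of 0.17 (adjusted p = 0.876, 0.914 and 0.96). Without siRNA #3 replicate 3 the last became 0.19 (adjusted p = 0.264).

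The canonical transcript of SMG1, of 16062 bases, is longer than that of 99.4% of the protein-coding genes tested. In siRNA #3 replicate 3, SMG1 lay 0.47 below the mean of its group on the log2 scale (-0.47), and the median of 594 genes with a transcript of at least 10 kb was also low (-0.16). In siRNA #3 replicate 1, SMG1 lay 0.41 above and these long transcripts 0.13 above. In the other 10 libraries the median of the long transcripts was between -0.06 and 0.06. The part of transcript length in the spread of SMG1 was not tested beyond these values. Pseudogenes of SMG1 in 9 table entries took 6.8 to 11.2% of the combined counts, so the split between SMG1 and its copies is uncertain. Summing them with SMG1 left it uncalled in all 7 comparisons.

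**Figure D4:**
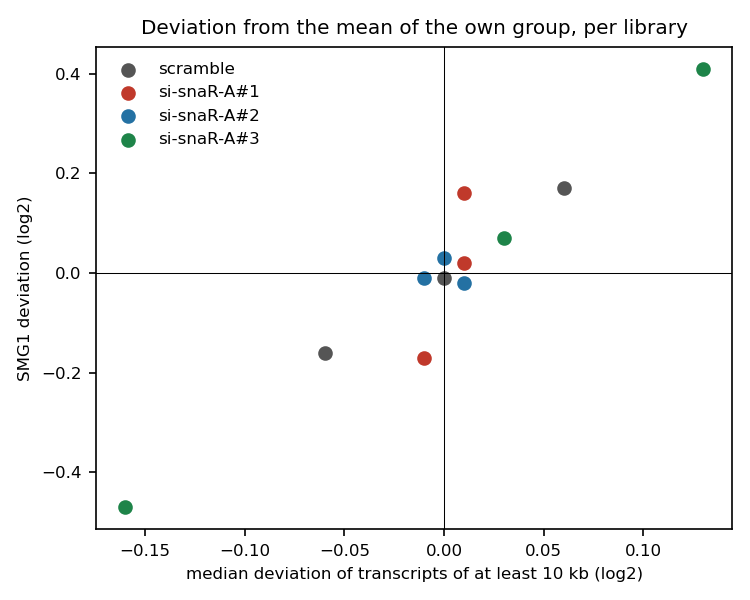
Deviation of SMG1 in each of the 12 libraries from the mean of its own group (vertical axis, log2) against the median deviation of 594 genes with transcripts of at least 10 kb (horizontal axis, log2). The siRNA #3 libraries reach from -0.16 and -0.47 to 0.13 and 0.41, and the libraries of the other groups stay within 0.06 of 0 on the horizontal axis.

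SMG8 (ENSG00000167447, chr17:59209400-59215239, plus strand) encodes a partner that restrains the kinase SMG1. The scramble libraries held 36.7, 39.4 and 38.4 CPM, those with siRNA #1 42.6, 40.9 and 39.0, those with siRNA #2 37.0, 35.3 and 37.2 and those with siRNA #3 35.3, 35.2 and 37.6. Each siRNA group overlapped scramble, and SMG8 was not called with any of them (log2 fold changes 0.10, -0.06 and -0.08, SE 0.05 each, adjusted p = 0.109, 0.355 and 0.2). It was called higher with siRNA #1 under a mean of at least 1 CPM (0.12, adjusted p = 0.0187) and without siRNA #1 replicate 3 (0.13, 0.0496), and lower with siRNA #3 under upper quartile scaling (-0.14, 0.0271) and a mean of at least 1 CPM (-0.11, 0.0416). An unnamed protein-coding gene on the same strand, ENSG00000265303, shares 422 of its exon bases, 11.3% of SMG8, so some counts could belong to either. ENSG00000265303 itself did not pass the filter on low counts.

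SMG9 (ENSG00000105771, chr19:43727983-43754962, minus strand) encodes the other partner of SMG1, which forms a heterodimer with SMG8. The scramble libraries held 28.2, 25.7 and 25.5 CPM, those with siRNA #1 27.8, 29.5 and 29.3, those with siRNA #2 24.1, 24.2 and 22.5 and those with siRNA #3 19.5, 20.6 and 18.8. The groups of siRNA #2 and siRNA #3 lay below scramble with no overlap, and that of siRNA #1 overlapped its upper part. SMG9 fell from 26.5 ± 1.52 to 19.7 ± 0.902 CPM with siRNA #3, by 25.7%, the largest fold change of any member against scramble (log2 -0.43, SE 0.05, adjusted p = 7.2e-05). It fell by 0.17 with siRNA #2 (SE 0.05, adjusted p = 0.0373) and stood at 0.13 with siRNA #1 (SE 0.05, adjusted p = 0.0707).

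The siRNA #3 call of SMG9 was kept in 23 of 23 alternatives and the siRNA #2 call in 12 of 23. The latter was lost under RLE scaling (adjusted p = 0.0565), with no low count filter (0.0699), by edgeR's exact test (0.0645), without scramble replicate 1 (0.164), 2 (0.0536) or 3 (0.0596), without siRNA #1 replicate 2 (0.0734) or 3 (0.0587) and without siRNA #2 replicate 1 (0.0629), 2 (0.0632) or 3 (0.149). With siRNA #1, SMG9 was called higher without scramble replicate 1 (0.17, adjusted p = 0.0223), under RLE scaling (0.14, 0.0431), with a mean of at least 1 CPM (0.15, 0.0302), with the compared groups only (0.16, 0.0492) and by DESeq2 (0.14, 0.0417).

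The siRNAs were also set against each other. SMG5, SMG6, SMG8 and SMG9 were higher with siRNA #1 than with siRNA #2, 4 members beside 46.7% of all genes called. The log2 differences were 0.28 for SMG5 (SE 0.07, adjusted p = 0.00688), 0.34 for SMG6 (SE 0.05, 8.7e-05), 0.16 for SMG8 (SE 0.05, 0.012) and 0.29 for SMG9 (SE 0.05, 5.9e-04). SMG5, SMG6, SMG8 and SMG9 were also higher with siRNA #1 than with siRNA #3, 4 members beside 48.6% of all genes called. Here the log2 differences were 0.26 for SMG5 (SE 0.07, adjusted p = 0.0104), 0.30 for SMG6 (SE 0.05, 2.5e-04), 0.18 for SMG8 (SE 0.05, 0.00592) and 0.55 for SMG9 (SE 0.05, 2.6e-06). The libraries of siRNA #1 did not overlap those of either other siRNA for any of these genes. The genes were taken because they were called, so this separation is no further support. Its share over all genes was not counted. The comparisons of siRNA #1 with siRNA #2 and with siRNA #3 share the siRNA #1 libraries.

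Between siRNA #2 and siRNA #3, 2 members were called beside 15.6% of all genes. SMG9 was higher with siRNA #2, by 0.26 on the log2 scale (SE 0.05, adjusted p = 0.00568), and UPF2 was lower, as given above. None of the UPF genes was called between siRNA #1 and another siRNA, and the log2 differences of UPF3B were -0.04 (SE 0.04, adjusted p = 0.375) against siRNA #2 and 0.06 (SE 0.04, adjusted p = 0.209) against siRNA #3. The latter was called under upper quartile scaling (0.12, adjusted p = 0.0131) and a mean of at least 1 CPM (0.12, 0.0116), as was UPF1 for the same pair (0.15, 0.00331 and 0.14, 0.00378). UPF2 was called for siRNA #1 against #2 under upper quartile scaling (0.12, adjusted p = 0.0377) and against #3 without siRNA #3 replicate 3 (-0.13, 0.0389). UPF3B was called higher with siRNA #2 than with siRNA #3 under upper quartile scaling (0.11, adjusted p = 0.0472), a mean of at least 1 CPM (0.13, 0.0186) and without siRNA #1 replicate 3 (0.12, 0.0359). The SMG8 call against siRNA #2 did not hold without siRNA #1 replicate 1 (adjusted p = 0.0585) or 2 (0.0543) and without siRNA #2 replicate 2 (0.0595).

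**Figure D5:**
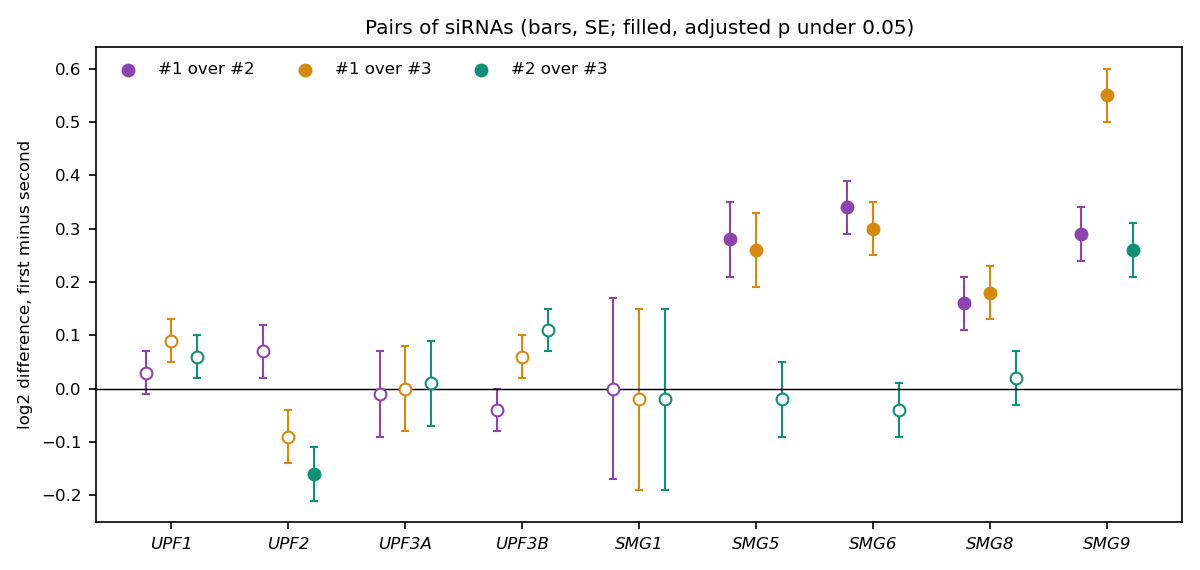
Log2 difference of each member between pairs of siRNAs (vertical axis, first minus second), with bars for the SE and filled points for an adjusted p under 0.05. SMG5, SMG6, SMG8 and SMG9 are filled above 0 for siRNA #1 against both other siRNAs, up to 0.55 for SMG9, and UPF2 is filled at -0.16 for siRNA #2 over siRNA #3.

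Features by which an mRNA can become a substrate of decay were read from GENCODE release 44. Of the 9 members, 4 (UPF1, SMG1, SMG8 and SMG9) had an annotated transcript of the class nonsense_mediated_decay, as did 45.4% of the protein-coding genes tested. A start codon upstream of the coding sequence was present in the canonical transcript of 4 (UPF2, SMG1, SMG5 and SMG9), as in 42.6% of these genes. The 3′ UTR was longer than the median of 1325 bases in 5, from 1363 bases in SMG5 and 1649 in SMG6 to 1713 in UPF1, 3613 in SMG9 and 4709 in SMG1. UPF3B, the member called with all 3 siRNAs, had 856 bases, no upstream start codon and no transcript of that class. Of the 6 members known as targets of the pathway in human cells (UPF1, UPF2, UPF3B, SMG1, SMG5 and SMG6), 2 passed the test in the mean of the siRNAs, both lower, with a median log2 fold change of -0.03, and of the remaining 3, 1 was called, lower, with a median of -0.16. Over all genes tested 32.2% were called and the median was -0.04, and the groups of 6 and 3 were not tested against each other.

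Other parts of the pathway were followed by lists drawn from general knowledge, with earlier results of these data known. Of 9 exon junction complex genes, 4 passed the test in the mean of the siRNAs, 2 higher and 2 lower, beside 32.2% of all genes, and both medians were -0.04 on the log2 scale. MAGOHB, a copy of the core subunit MAGOH, fell by 0.58 (SE 0.06, adjusted p = 1.8e-05), from 27.7 ± 2.34 CPM in scramble to 26.3 ± 1.64, 18.4 ± 1.39 and 13.1 ± 1.09 with the siRNAs in order of number. EIF4A3, the helicase at the core of the complex, fell by 0.26 (SE 0.04, adjusted p = 5.8e-04), where 131 ± 5.69 CPM in scramble stood against 121 ± 6.44, 136 ± 6.81 and 78.5 ± 4.22. RNPS1, which activates decay from the complex, rose by 0.26 (SE 0.03, adjusted p = 6.9e-05). It was called with siRNA #1 and siRNA #3 and not with siRNA #2 (0.09, SE 0.04, adjusted p = 0.148). EIF4A3 was called with siRNA #3 (log2 fold change -0.74, SE 0.06, adjusted p = 1.2e-06) and with neither of the others, and MAGOHB with siRNA #2 and siRNA #3. The list had 2 genes called with siRNA #1, 2 with siRNA #2 and 5 with siRNA #3, beside 45.2, 25.8 and 29.4% of all genes.

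Among 15 other trigger and release factors, 6 were called in the mean, 5 higher and 1 lower, beside 32.2% of all genes, with a median log2 fold change of 0.09. With siRNA #1, 12 were called (8 higher, 4 lower) beside 45.2% of all genes, with siRNA #2, 7 (6 higher, 1 lower) beside 25.8%, and with siRNA #3, 9 (8 higher, 1 lower) beside 29.4%. RUVBL2, an ATPase that acts with SMG1, rose by 0.30 (SE 0.04, adjusted p = 1.0e-04). The release factors ETF1 (0.25, SE 0.04, adjusted p = 2.4e-04) and GSPT1 (0.24, SE 0.04, adjusted p = 2.7e-04), which act with UPF1 at the stop codon, were higher as well. ETF1 was called with siRNA #1 and siRNA #3 and not with siRNA #2 (0.06, SE 0.04, adjusted p = 0.359). GSPT1 measured 340 ± 7.37 CPM in scramble and 391 ± 23.6, 388 ± 7.24 and 428 ± 9.02 with the siRNAs in order. Of 17 genes of decapping, deadenylation and exonuclease decay, 6 were called in the mean, 4 higher and 2 lower, with a median of 0.01, beside the same 32.2%. Single siRNAs gave 12, 6 and 10 calls in order of number, beside 45.2, 25.8 and 29.4% of all genes. EDC3, an enhancer of decapping, rose by 0.42 (SE 0.03, adjusted p = 1.2e-06), from 57.3 ± 1.33 CPM to 76.7 ± 3.50, 73.5 ± 1.52 and 79.6 ± 1.00. SKIC2, the helicase of the Ski complex, was higher by 0.28 (SE 0.07, adjusted p = 0.00655) and CNOT1, the scaffold of the deadenylase complex, by 0.20 (SE 0.05, adjusted p = 0.0112). SKIC2 was not called with siRNA #3 (0.23, SE 0.08, adjusted p = 0.0504).

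Of 15 transcripts known to be degraded by the pathway, 5 were called in the mean, 2 higher and 3 lower, beside 32.2% of all genes, with a median log2 fold change of 0.01. Single siRNAs gave 9 (5 higher, 4 lower), 6 (4 higher, 2 lower) and 4 (2 higher, 2 lower) calls in order of number. Of all genes, 45.2, 25.8 and 29.4% were called in the same order. TBL2 rose by 0.31 (SE 0.04, adjusted p = 1.2e-04), from 49.0 ± 2.14 CPM in scramble to 68.8 ± 3.24 and 62.6 ± 2.44 with siRNA #1 and siRNA #2, and stood at 52.3 ± 2.65 with siRNA #3. ATF4, a stress-response transcription factor, rose by 0.17 (SE 0.03, adjusted p = 0.00196). It was called with siRNA #2 and siRNA #3 and not with siRNA #1 (0.04, SE 0.04, adjusted p = 0.491). GADD45A, a growth arrest gene, fell by 0.24 (SE 0.05, adjusted p = 0.00187), from 35.0 ± 2.12 CPM to 28.2 ± 0.390, 29.9 ± 2.13 and 31.1 ± 1.44. SC5D, an enzyme of cholesterol synthesis, was called lower in the mean (-0.17, SE 0.03, adjusted p = 8.1e-04), which hid opposite calls. It fell by 1.18 with siRNA #1 (SE 0.04, adjusted p = 6.1e-10). It rose by 0.29 with siRNA #2 (SE 0.04, adjusted p = 9.5e-05) and by 0.37 with siRNA #3 (SE 0.04, adjusted p = 1.2e-05). Its group means were 204 CPM in scramble and 90.2, 250 and 263 with the siRNAs in order of number. SC5D was not alone in this, and genes of other lists also had opposite calls between siRNAs. Examples are DDIT3 (-0.31 with siRNA #1, 0.21 with siRNA #2) and CASC3 (0.26 with siRNA #1, -0.33 with siRNA #3). Others are PNRC2 (-0.30, 0.17 and 0.13) and PAN3 (0.28, 0.22 and -0.23), in order of number.

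Relatives by domain were read beside the members. Of 5 other kinases of the SMG1 family (ATM, ATR, MTOR, PRKDC and TRRAP), edgeR called 0 in the mean of the siRNAs, 1 passed an unadjusted p under 0.05, limma voom called 0 and DESeq2 called 2, beside 32.2% of all genes called by edgeR. With siRNA #3, 1 of the 5 was called beside 29.4% of all genes, MTOR, the kinase of growth control, higher by 0.28 (SE 0.06, adjusted p = 0.00372). For siRNA #1 against #2, 3 of the 5 were called beside 46.7% of all genes. Leaving out siRNA #3 replicate 3 gave 2 edgeR calls, both higher. Of 6 helicases related to UPF1, 2 were called in the mean, ZNFX1 higher by 0.29 (SE 0.05, adjusted p = 7.4e-04) and DNA2, which fell by 0.25 (SE 0.04, adjusted p = 1.6e-04). DNA2 was called with siRNA #1 alone (-0.56, adjusted p = 5.8e-07), beside -0.09 with siRNA #2 (0.19) and -0.11 with siRNA #3 (0.0873). Of 10 pseudogene entries of SMG1 and UPF3A, 2 were called, both lower and both with the symbol SMG1P7 (-0.86, SE 0.12, adjusted p = 1.8e-04, and -0.68, SE 0.11, adjusted p = 5.3e-04), and their reads may be shared with SMG1.

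The genes whose profile over the 12 libraries came closest to that of a member were found by the root mean square of log2 differences over 11682 candidates averaging 5 CPM or more. For UPF1 these were MBD1 (0.0261), METTL23 (0.0382), MRPL11 (0.0387), EIF3A (0.04) and SLC7A6OS (0.0406), and the nearest member was SMG8 (0.0754). For SMG5, which had the largest fall of the members in the mean of the siRNAs, these were ANKRD13D (0.0588), MARCHF9 (0.0603), ANKLE2 (0.0662), DMPK (0.0716) and BRD8 (0.073), and the nearest member was UPF3A (0.149). Each profile was centred on the gene's own scramble mean, so these values describe likeness in change from scramble and not in level. The members are few beside 11682 candidates, so a smaller lowest difference among the candidates is no result about the members. UPF1 and the genes nearest to it changed little from scramble. The libraries compared share their groups.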

How the data were processed

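HEK293T cells were sequenced in 12 libraries, 4 groups of 3. The authors trimmed reads with Trim Galore, quantified transcripts by Salmon and deposited estimated counts per Ensembl gene, unscaled between libraries. The library kit was stranded, but the transcriptome release and the use of strand in counting are not given in the sources used here. No deposited value was exactly 1, and of values between 0.5 and 1.5, 77.8% lay within 0.05 of it, a pattern that rescaling of counts by transcript length could leave. No source states such a step. Totals ranged from 120.4 to 180.1 M. Estimated counts were rounded, filtered with filterByExpr, scaled by TMM and fitted in edgeR 4.0.16 (R 4.3.3) with a coefficient per group. The quasi-likelihood test was run for each siRNA and the mean of the 3 against scramble and for each pair of siRNAs. P-values were adjusted by Benjamini-Hochberg over 21999 genes. The SE is the log2 fold change divided by the root of the F statistic. The edgeR steps were also run on simulated counts with known changes, for siRNA #1 against scramble only. The simulated spread was below the common spread estimated for these libraries. That run therefore does not measure the error of the calls made here.

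Symbols, coordinates and transcripts came from GENCODE release 44 (GRCh38, 58160 of 63541 IDs matched), and promoter windows from RefSeq (8 of 9 members matched). The members and gene lists were chosen with earlier results of these data known. All members were named, and from each list up to 3 genes with the largest change in the mean of the siRNAs, among those called with at least 1 CPM. Profiles were compared for UPF1 and for the members with the largest rise and fall (no member had a value above 0). MTOR, ATM, ATR, PRKDC, TRRAP, SC5D, DDIT3, CASC3, PNRC2, PAN3 and HIC1 were named after their values were seen. Replicates differed by more than counting error (chi-square per degree of freedom 11.9 to 56.9), so counting error alone understates their spread. Alternatives were RLE and upper quartile scaling, no low count filter, a mean of at least 1 CPM, DESeq2 1.42.0, edgeR's exact test, limma voom 3.58.1, fits of the compared groups only, a replicate block, each library left out, thinning to the smallest library, and SMG1 summed with its pseudogenes.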

Additional observations from a re-analysis of the deposited data

Results flagged for a closer look

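The siRNAs differed from each other for 5 members, by edgeR's quasi-likelihood test of the difference itself with Benjamini-Hochberg adjustment over 21999 genes. Between siRNA #1 and siRNA #2, the log2 difference was 0.34 for SMG6, 0.29 for SMG9, 0.28 for SMG5 and 0.16 for SMG8. Between siRNA #1 and siRNA #3 it was 0.30 for SMG6, 0.55 for SMG9, 0.26 for SMG5 and 0.18 for SMG8. Between siRNA #2 and siRNA #3 it was 0.26 for SMG9 and -0.16 for UPF2. The shares of all genes called were 46.7% for siRNA #1 against #2, 48.6% for #1 against #3 and 15.6% for #2 against #3. All 3 libraries of one siRNA lay on one side of all 3 libraries of the other for each of these members. The members were taken because they were called, so this separation is no further support. Its share over all genes was not counted.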

How the results depend on the processing

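Each member was recomputed in 7 comparisons under up to 23 alternatives, 1431 values in all, of which 1290 kept their direction and their side of the threshold, 46 lost a call, 30 gained a call and 65 changed sign, none of the last from a called value. Leaving out a library moved the number of members called to between 1 and 4 with siRNA #1, between 1 and 4 with siRNA #2, between 1 and 4 in the mean of the siRNAs and between 1 and 2 for siRNA #2 against #3. Other settings also moved these counts. A filter at a mean of 1 CPM gave 4 members with siRNA #1 and 6 with siRNA #3, upper quartile scaling gave 6 with siRNA #3, and with siRNA #2 RLE scaling gave 1 and no low count filter and edgeR's exact test 2 each. Fitting the compared groups only gave 1 member for siRNA #2 against #3. The kinases of the SMG1 family had 2 calls under DESeq2 and 0 to 2 with a library left out. Counts for the other lists stayed within 1.5 times. The cause of these shifts was not tested.

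Same-numbered libraries of different groups did not deviate together (r between -0.236 and 0.172 over 18 pairs), so the number is not taken as a pairing. With the replicate block, 2, 3 and 3 members were called with siRNA #1, #2 and #3 and 3 in the mean, 4 and 4 for siRNA #1 against #2 and #3 and 2 for siRNA #2 against #3, and 1 kinase of the SMG1 family was called. Of the uncalled values, 3 changed sign under the block, namely UPF3A for siRNA #1 against #3 (-7.1e-05) and SMG1 for siRNA #1 against #3 (0.0049) and #2 against #3 (0.01).

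The other changes of sign were of uncalled values close to 0. Against scramble these were UPF2 with siRNA #1 (0.0028 with a mean of 1 CPM, 0.01 with the compared groups only and with the exact test), UPF1 with siRNA #2 (0.01 under RLE, 0.02 under DESeq2), SMG1 with siRNA #3 (0.002 under RLE, 0.01 under DESeq2) and, in the mean, UPF2 (0.002) and SMG8 (0.00097) under DESeq2. Between siRNA #1 and #2 they were UPF3A (0.05 under upper quartile scaling, 0.03 with a mean of 1 CPM), UPF3B (0.01 under upper quartile scaling) and SMG1 (0.05 and 0.03 under the same settings, 0.02 summed with its pseudogenes, 0.00018 with the compared groups only, 0.00028 with the exact test). Between siRNA #1 and #3 they were UPF3A (-0.0043 under RLE, -0.01 with no filter and under DESeq2, -0.0027 with limma voom) and SMG1 (0.04 under upper quartile scaling, 0.03 with a mean of 1 CPM, 0.02 summed with its pseudogenes, 0.01 with limma voom). Between siRNA #2 and #3 SMG1 gave 0.00078 with a mean of 1 CPM and 0.02 with limma voom.

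With a library left out, SMG1 ranged from -0.12 to 0.05 with siRNA #1, -0.09 to 0.06 with siRNA #2, -0.24 to 0.19 with siRNA #3 and -0.10 to 0.06 in the mean, and between pairs from -0.10 to 0.06 (#1, #2), -0.23 to 0.20 (#1, #3) and -0.22 to 0.21 (#2, #3). SMG5 ranged from -0.11 to 0.02 with siRNA #1 and -0.06 to 0.03 for siRNA #2 against #3, UPF1 from -0.04 to 0.02 with siRNA #2 and -0.01 to 0.06 for siRNA #1 against #2, and SMG8 from -0.04 to 0.01 in the mean. UPF3A ranged from -0.11 to 0.08 (#1, #2), -0.09 to 0.08 (#1, #3) and -0.03 to 0.04 (#2, #3). Thinning every library to the smallest total left the direction and call of all 63 member values as they were.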
